A study of Mus musculus with 32 samples.

Results

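The plasma protein transcripts of liver type are 33 genes whose products circulate in blood and are classically made by hepatocytes: albumin (Alb), 8 apolipoproteins, clotting factors, protease inhibitors, complement components and metal or haem carriers. They were chosen by gene name, with the spread of Alb over these arrays already known. Of 50 probes for them on the array, 46 probes of 32 genes were in the deposited table, out of 37306 probes of 24523 gene names that passed the same filter. Apob was the gene without a kept probe. The RNA came from interscapular brown fat of male C57BL6/J mice that had gone without food for 24 hours and were then given food, and drinking water with 20% glucose, for 18 hours. The 32 one-colour arrays came from 8 total ChREBP-KO mice (Mlxipl-null, lacking both ChREBPα and ChREBPβ), 8 WT mice of that line, 8 ChREBPβ-KO mice (exon 1b of Mlxipl removed by CRISPR/Cas9 editing of embryos) and 8 WT mice of the ChREBPβ line. Neither deletion was restricted to a tissue, so the liver carried it too. Replicates were labelled as separate samples with no word on litters, so p-values measure the spread between these samples. On each array 64.4% to 71.1% of spots exceeded the scanner software's background limit, and 0 were saturated. The brightest Mlxipl probe was lower in total ChREBP KO than in its WT by 2.48 on the log2 scale and in ChREBPβ KO by 1.5, with no overlap in either line, but it was not placed relative to the deleted parts.

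Hepatocytes secrete most plasma proteins, and their genes are driven in liver by factors such as HNF1, HNF4 and C/EBP. Several of these proteins are made elsewhere as well: apolipoprotein E and complement C3 come from macrophages and adipocytes, and adipose tissue is a known source of haptoglobin and orosomucoid. ChREBP is a glucose-responsive transcription factor that drives glycolytic and lipogenic genes in liver and adipose tissue.

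Promoters are shown for 3 genes that varied together (Alb, Fgb and Serpina1a) and for C3, which was steady, because a shared short element near the start site is the visible likeness among some of the former. The 250 bases before the RefSeq start site are given on the GRCm38.p6 build, 5′ to 3′ in the direction of transcription. Capitals mark the short HNF1 site, GTTAAT or its reverse complement ATTAAC.
Alb promoter, chr5:90460620-90460869, plus strand: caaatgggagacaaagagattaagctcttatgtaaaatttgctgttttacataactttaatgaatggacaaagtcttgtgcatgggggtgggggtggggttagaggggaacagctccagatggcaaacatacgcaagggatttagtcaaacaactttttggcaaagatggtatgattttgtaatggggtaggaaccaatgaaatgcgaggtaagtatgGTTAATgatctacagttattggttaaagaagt
Fgb promoter, chr3:83049864-83050113, minus strand: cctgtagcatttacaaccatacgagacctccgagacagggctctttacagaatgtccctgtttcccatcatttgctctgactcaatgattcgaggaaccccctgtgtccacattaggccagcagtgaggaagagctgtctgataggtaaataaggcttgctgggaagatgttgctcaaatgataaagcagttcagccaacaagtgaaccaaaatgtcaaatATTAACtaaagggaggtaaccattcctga
Serpina1a promoter, chr12:103863620-103863869, minus strand: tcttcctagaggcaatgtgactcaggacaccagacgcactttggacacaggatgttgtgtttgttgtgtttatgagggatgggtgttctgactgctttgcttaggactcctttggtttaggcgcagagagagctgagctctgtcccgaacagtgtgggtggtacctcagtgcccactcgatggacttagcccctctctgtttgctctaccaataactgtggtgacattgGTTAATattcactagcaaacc
C3 promoter, chr17:57228137-57228386, minus strand: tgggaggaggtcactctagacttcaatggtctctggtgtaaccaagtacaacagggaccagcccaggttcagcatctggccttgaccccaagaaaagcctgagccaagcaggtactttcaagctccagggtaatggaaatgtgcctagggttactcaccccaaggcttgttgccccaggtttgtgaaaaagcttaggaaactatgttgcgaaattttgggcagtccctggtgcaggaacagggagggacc

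RefSeq promoters were available for 23 of the 33 genes; Apoc1, Apoc3, Cfb, Hp, Kng1, Orm1, Plg, Serpina3k, Trf and Ttr were not in the promoter table used here. The short HNF1 site was found on either strand in 6 of the 18 genes that followed Alb over the arrays (the rule is given below), 1 of 2 steady genes (1 of the 3 Apoe start sites) and 0 of 2 genes that varied apart. It occurred in 6.43% of 32851 mouse promoters of the same length. That share is per promoter, while a gene here counted by any of its start sites. The promoters of Serpina1a and Serpina1b are close copies, so they do not count as separate matches. The 3 genes shown with the site were picked for it and do not stand for the 18. In Alb, Fgb, Itih1, Serpina1a and Serpina1b the match ended 15 to 26 bases before the start site, and in Vtn it ended 106 bases before. The full HNF1 motif, which contains this short site, the HNF4 motif CAAAGTCCA and the C/EBP motif TTGCGCAA were found in 0 of the 23 genes, and in 0.00913%, 0.384% and 0.164% of all promoters. The carbohydrate response element to which ChREBP binds, searched with exact copies of both its E boxes, was found in 0 of 32851 promoters. All motifs were searched on both strands, and a match or its lack describes these letters only.

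The α1-antitrypsin genes are near-identical copies, so 2 of their probes are shown as an example of sequence that the probes share. Both are 60 bases long, and capitals mark the longest run they share, 26 bases.
Serpina1a probe, chr12:105091979-105092038 of mm9: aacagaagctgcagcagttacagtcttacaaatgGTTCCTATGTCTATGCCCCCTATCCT
Serpina1b probe, chr12:104966520-104966579 of mm9: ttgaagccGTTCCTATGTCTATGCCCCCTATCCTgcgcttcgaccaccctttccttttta
The run ends where the Serpina1a probe ends, so its length depends on where the probes were placed. Neither probe was compared with the transcript of the other gene. How far the array separates these genes was therefore not tested, and signals of these 2 probes may come in part from the same RNA. The Serpina1a values below are those of its brightest probe, at chr12:105091819-105091878 of mm9, to which this comparison does not apply. Serpina1a and Serpina1b are counted as 2 genes throughout, although signals of such close copies may not be separate.

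The level of Alb differed by 10.34 log2 units between the lowest and the highest array. Albumin is the main carrier protein of plasma. Its brightest probe, at chr5:90905550-90905609 of mm9, was measured as log2 of the quantile-normalised median intensity, and all 32 arrays were well above background. It ran from 5.67 through a median of 8.63 to 13.41 in WT mice of the total ChREBP line, and from 5.25 through 5.79 to 10.79 in total ChREBP KO. It ran from 5.26 through 11.47 to 15.36 in WT mice of the ChREBPβ line, and from 5.02 through 12.62 to 14.89 in ChREBPβ KO. Low and high arrays occurred in all 4 groups, and the groups overlapped. Levels of different probes are not compared with each other here; a difference always refers to 1 probe.

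Each gene was described by its brightest probe, by Pearson r with Alb over the 32 arrays and by its range, the highest minus the lowest array. A gene followed Alb when r was at least 0.8 and its range at least 2 log2 units, was steady when its range was under 2, and otherwise varied apart from Alb. By this rule 21 of the 32 genes followed Alb, 6 were steady and 5 varied apart. Among all 24523 gene names 149, or 0.608%, met the rule for following Alb. Alb itself is counted in the 21 and in the 149, as its r with itself is 1. These classes use the values themselves and are a description with no test, and the arrays share 1 normalisation. Vtn was just inside the limit on r (0.801) and Itih4 just outside it (0.772). Kng1 was just above the limit on range (2.25) and Plg, at r = 0.801, just below it (1.51).

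**Figure D1:**
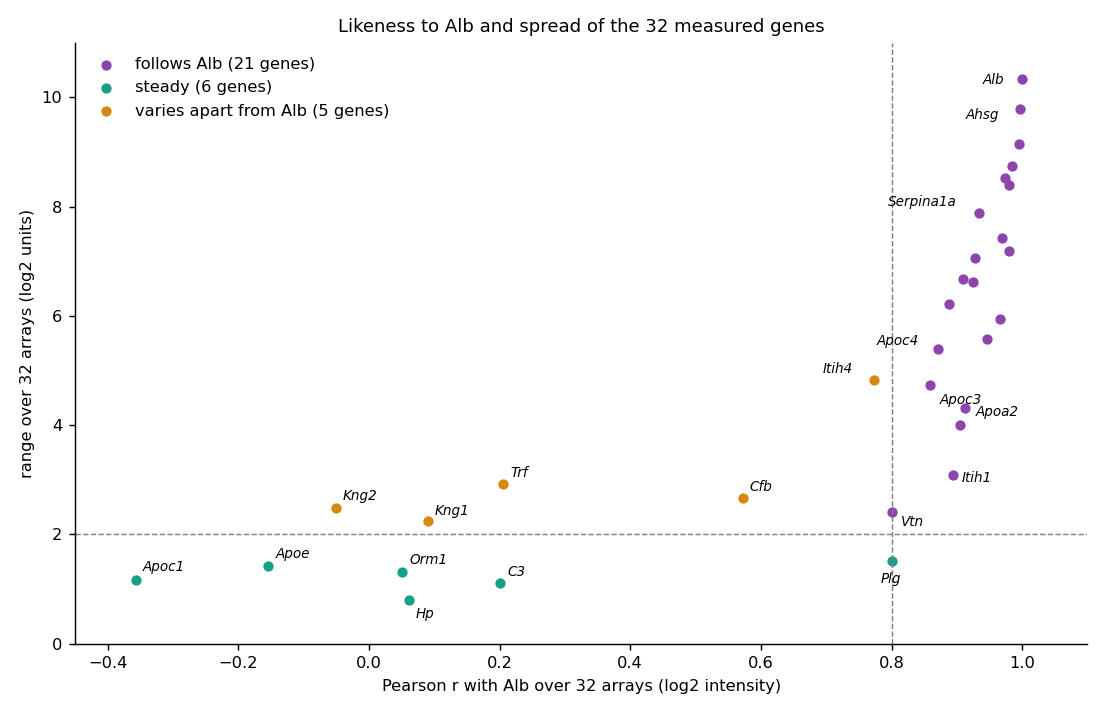
Pearson r with Alb over the 32 arrays (horizontal axis, log2 intensity) against the range over the 32 arrays (vertical axis, log2 units) for the brightest probe of each of the 32 measured genes, with dashed lines at the limits 0.8 and 2. The 21 genes that followed Alb lie at the upper right, while Apoc1, Apoe, C3, Hp and Orm1 lie below a range of 2 and at r from -0.36 to 0.20.

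The closest companions of Alb were Ahsg (fetuin A, an inhibitor of mineral deposition) and Ambp (the precursor of α1-microglobulin and bikunin), with r of 0.996 and 0.995. Ahsg ranged over 9.79 log2 units and Ambp over 9.14. Neither was well above background on the array with the lowest Alb, and they reached 14.08 and 13.39 on the array with the highest. The fibrinogen chains Fgb and Fgg, which form the clot, had r of 0.985 and 0.980 and ranges of 8.75 and 8.40. Prothrombin (F2) had an r of 0.969 and a range of 7.43. The same pattern was seen for Apoh (β2-glycoprotein I) at r = 0.980 and Ttr, the thyroxine and retinol-binding protein carrier, at r = 0.974.

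Among the apolipoproteins, Apoa1, the main protein of high-density lipoprotein, followed Alb closely (r = 0.966, range 5.95). Apoa2 followed it at r = 0.912 with a range of 4.31. Apoc4 and Apoc3, the latter an inhibitor of lipoprotein lipase, had r of 0.872 and 0.859. Apob, the structural protein of chylomicrons and very-low-density lipoprotein, was outside the table because its probes were well above background on 19 and 12 arrays only. On the unnormalised log2 scale those Apob probes had r of 0.975 and 0.918 with Alb. Apoe and Apoc1 did neither: their ranges were 1.43 and 1.16 log2 units and their r was -0.15 and -0.36.

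Neighbouring genes differed in class. Apoc4, Apoc1 and Apoe lie next to each other on chromosome 7, with probes between 20263609 and 20281791 of mm9, and only Apoc4 followed Alb. Apoa1 and Apoc3 probes lie within chr9:46037921-46041193, and both followed it. The inter-α-trypsin inhibitor heavy chains Itih1, Itih3 and Itih4 have probes between 31714970 and 31742434 on chromosome 14. Itih1 and Itih3 followed Alb (r = 0.894 and 0.946), and so did Itih2 on chromosome 2 (r = 0.904). Itih4 ranged over 4.82 log2 units with an r of 0.772, which became 0.830 over deviations from the group means.

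The serpins, which inhibit serine proteases, all followed Alb. Serpina1a had an r of 0.933 and a range of 7.88, Serpina1b 0.910 and 6.67, antithrombin (Serpinc1) 0.929 and 7.06, and Serpina3k 0.888 and 6.23. Haemopexin (Hpx), a haem scavenger, had 0.925 and 6.62. Vitronectin (Vtn), an adhesion protein, had the smallest range of the 21, 2.41.

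On the array with the lowest Alb, 14 of the 21 followers were still well above background. The other 7 (Ahsg, Ambp, Apoh, F2, Fgb, Fgg and Ttr) were not well above background there. Of the 21, 12 were well above background on all 32 arrays, and 8 passed the filter only through 6 or more arrays of 1 group, so their low values have little order. In total ChREBP KO, Ambp, Apoh, Fgb and Ttr were each well above background on 2 of 8 arrays.

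The steady genes were Apoc1, Apoe, C3, Hp, Orm1 and Plg. C3, the central complement component, ranged over 1.12 log2 units with an r of 0.201. Haptoglobin (Hp), which binds free haemoglobin, had the narrowest range, 0.81, with an r of 0.061. Orosomucoid (Orm1), an acute-phase carrier, ranged over 1.32 with an r of 0.051. Plasminogen (Plg) differed from the other 5: its probe stayed between 4.60 and 6.11, and its r with Alb was 0.801. Among the genes that varied apart, the complement factor Cfb had an r of 0.572. The iron carrier transferrin (Trf) had an r of 0.205 over the arrays and 0.678 over deviations from the group means. The kininogens Kng1 and Kng2, precursors of bradykinin, had r of 0.090 and -0.05.

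**Figure D2:**
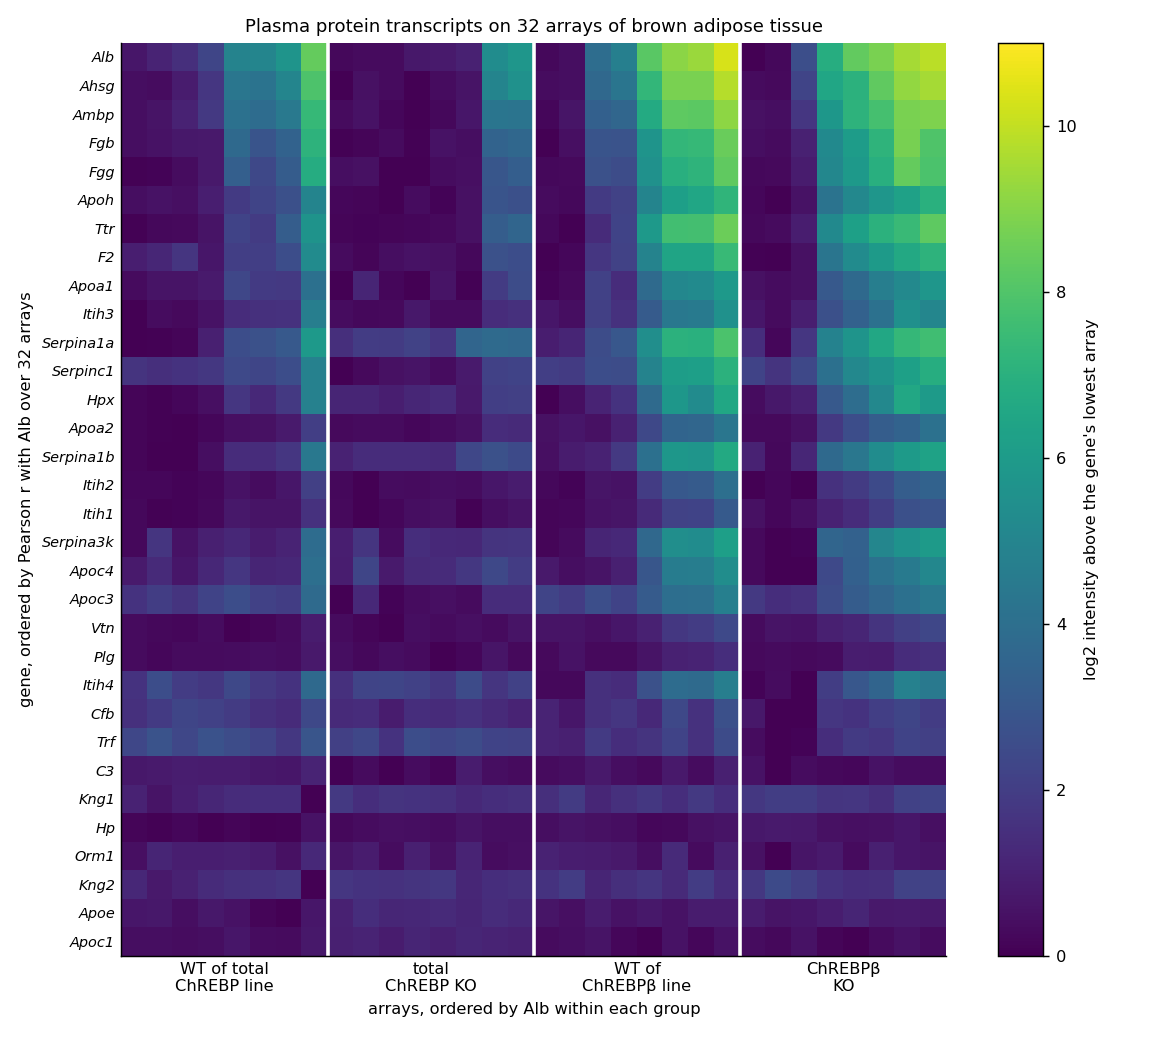
Log2 intensity above each gene's lowest array (colour) for the brightest probe of the 32 genes (rows, ordered by r with Alb) on 32 arrays (columns, ordered by Alb within each group of 8). The upper rows brighten together towards the right of each group, by up to 10.34 log2 units for Alb, and the rows of Apoc1, Apoe, Hp and C3 stay within 1.43.

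Probes of 1 gene did not always share a class. The third Apoc3 probe, at chr9:46043606-46043665 of mm9, ranged over 0.55 log2 units, while the other Apoc3 probes ranged over 4.73 and 4.64. A second Serpinc1 probe ranged over 0.83. A dim Kng1 probe, at chr16:23079732-23079791, had an r of 0.713 with Alb, against 0.090 and 0.122 for its brighter probes.

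Genes outside the 33 that moved most like Alb were, in order of r from 0.990 to 0.957, Gc, Mug1, Fabp1, Serpinf2, Uox, Ces3a, Bhmt, Mup-ps12, Mup6 and Cyp2a12. All of these but Serpinf2 were well above background on fewer than 26 arrays, from 17 for Cyp2a12 to 25 for Mup6. They passed the filter only through 6 or more arrays of 1 group, so their low values have little order. Gc, the vitamin D-binding protein, ranged over 9.01 log2 units, and Fabp1, the liver fatty acid-binding protein, over 9.76. In a list of 71 other plasma proteins, 53 were measured, of which 22 followed Alb, 18 varied apart and 13 were steady. Gc, Mug1 and Serpinf2 of that list were most like Alb, and Crp, Cfd and Saa3 least (r of -0.49, -0.35 and -0.30). Cfd is adipsin, a complement protease that adipocytes secrete.

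Hepatocyte genes that encode no plasma protein moved with Alb. Of 18 listed, 12 were measured and 9 of them followed Alb, led by urate oxidase (Uox, r = 0.976) and Bhmt (0.972). Uox and Bhmt were each well above background on 21 arrays only. Hpd, Gnmt and Hal were least like it, with r of 0.770, 0.655 and 0.318. The mean of the 12 genes had an r of 0.945 with Alb. It spanned 5.5 to 7.88 in WT mice of the total ChREBP line, 5.44 to 6.66 in total ChREBP KO, 5.66 to 10.02 in WT mice of the ChREBPβ line and 5.5 to 9.73 in ChREBPβ KO. Hnf4a, a hepatocyte transcription factor, was among the listed genes without a kept probe. The mean of 8 brown adipocyte genes, markers of the labelled tissue with Ucp1 and Cidea among them, was high on every array. It stayed between 14.42 and 15.48, with an r of -0.33. By the rule above 5 of these 8 genes were steady and 3 varied apart from Alb. The mean of 7 skeletal muscle genes spanned 12.92 to 16.40 in the total ChREBP line and 5.64 to 12.19 in the ChREBPβ line, with an r of -0.34. The part of liver, muscle or other cells in the values was not tested, and in these bulk samples more cells of a type and more RNA per cell cannot be told apart.

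**Figure D3:**
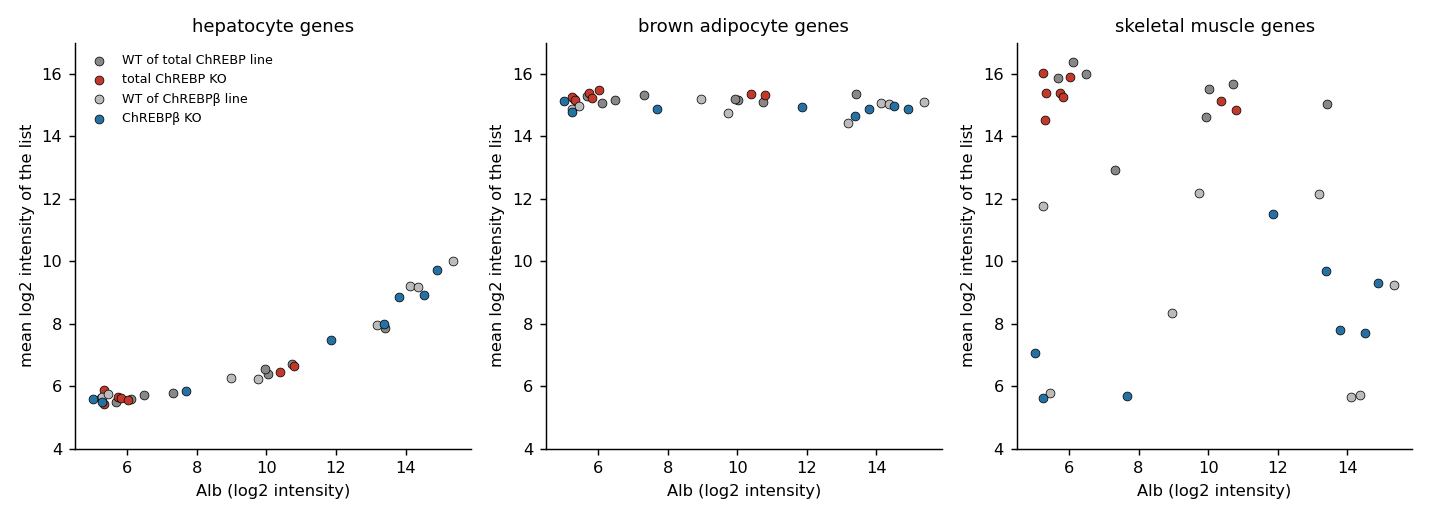
Mean log2 intensity of 12 hepatocyte, 8 brown adipocyte and 7 skeletal muscle genes (vertical axes) against Alb (horizontal axes, log2 intensity) on each array, with colours for the 4 groups. The hepatocyte mean rises with Alb to 10.02, the brown adipocyte mean stays between 14.42 and 15.48, and the muscle mean separates the lines.

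The first comparison was between total ChREBP KO and WT mice of the same line. Apoe and Apoc1 rose, C3 and Apoc3 fell, and Hp and Kng1 rose; these were the 6 of 32 genes called by limma at an adjusted p under 0.05, while 44.1% of all genes tested were called in this comparison. Of the 32 genes 4 were higher and 2 lower, against 22.9% and 21.1% of all genes. The 6 of 32 genes thus made up a smaller share than the background. Of the 6 steady genes 4 were called, of the 5 that varied apart 1, and of the 21 that followed Alb 1. The classes were cut by range over these same arrays, which favours a small SE in steady genes. These counts therefore do not compare the classes. The median difference was -0.75 on the log2 scale over the 21 followers and 0.09 over the steady genes, against 0.01 over all 24523 genes. The followers vary together, so their median does not stand for 21 separate differences.

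Apoe, a ligand of lipoprotein receptors (probe at chr7:20281732-20281791 of mm9), ran from 16.002 through 16.59 to 16.72 in WT mice and from 17.03 through 17.24 to 17.43 in total ChREBP KO. Every KO array lay above every WT array. The difference was 0.77 ± 0.09 (SE, n = 8 per group; limma adjusted p = 3.94e-08), and it was positive in all 4 wash batches, from 0.48 to 0.91. A second Apoe probe gave 0.78.

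Apoc1, which inhibits lipoprotein uptake and lipases (chr7:20274856-20274915), ran from 16.79 through 16.87 to 17.16 in WT mice and from 17.31 through 17.50 to 17.63 in total ChREBP KO. Again the groups did not overlap. The difference was 0.57 ± 0.08 (SE; limma adjusted p = 9.5e-07), with 0.48 to 0.73 within wash batches. Groups of 8 arrays did not overlap for 3 of the 32 genes (Apoe, Apoc1 and Apoc3), and for 16.6% of all genes.

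Apoc3 (chr9:46041134-46041193) was the follower of Alb that was called. It ran from 9.29 through 9.73 to 11.47 in WT mice and from 7.67 through 8.09 to 9.09 in total ChREBP KO. No array overlapped, although the Alb values of these groups did. Apoc3 fell by 1.58 ± 0.43 on the log2 scale (SE; limma adjusted p = 0.00294), with -1.79 to -1.05 within wash batches. With the Alb value of each array as a covariate the difference was -1.14 (adjusted p = 2.66e-05), and without the WT array of highest Alb it was -1.36 (adjusted p = 0.00955). A second Apoc3 probe gave -1.62, and the third, which was steady, gave -0.02 with an adjusted p of 0.864.

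C3 (chr17:57343416-57343475) ran from 16.12 through 16.25 to 16.57 in WT mice and from 15.45 through 15.77 to 16.28 in total ChREBP KO. It was below the WT mean on 7 of 8 KO arrays. The difference was -0.51 ± 0.10 (SE; limma adjusted p = 0.000131), from -0.58 to -0.22 within wash batches, and its second probe gave -0.50. The related Cfb, a protease of the alternative complement pathway, differed by -0.58 with an adjusted p of 0.105, but its dimmer probe was called at -0.65 (adjusted p = 0.031). The brightest Cfb probe was called in a fit to WT and KO of the total ChREBP line only. The mean of 4 macrophage genes spanned 8.47 to 9.14 in WT mice and 8.09 to 8.51 in total ChREBP KO, with 3 of the 4 genes called lower. The mean of 5 adipocyte genes spanned 14.26 to 14.70 in WT mice and 14.54 to 14.92 in total ChREBP KO, with 3 of the 5 called higher, among them Adipoq (adiponectin) by 0.65 (adjusted p = 1.85e-08). Over all genes 22.9% were called higher and 21.1% lower in this comparison, and lists this short do not compare cell types. The part of macrophages and adipocytes in the C3, Apoe and Apoc1 values was not tested.

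Hp ran from 17.21 through 17.30 to 17.73 in WT mice and from 17.45 through 17.61 to 17.77 in total ChREBP KO, a difference of 0.26 ± 0.07 (SE; limma adjusted p = 0.00307) that ran from 0.04 to 0.46 within wash batches. This call was lost with the 75th percentile in place of quantile normalisation, at 0.17 and 0.19 (adjusted p = 0.0773 and 0.0596). Kng1 ran from 13.05 through 14.18 to 14.49 and from 14.31 through 14.58 to 14.87, a difference of 0.53 ± 0.15 (SE; limma adjusted p = 0.00453). Within wash batches it ran from 0.19 to 0.97, and a fit with each slide as a block gave 0.30 (adjusted p = 0.211). The second Kng1 probe was called at 0.45 (adjusted p = 0.0483), while the dim probe gave -0.28 and was not called (adjusted p = 0.322). Its neighbour Kng2 differed by 0.43 and was not called (adjusted p = 0.0509).

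Alb itself differed by -1.88 between total ChREBP KO and its WT, less than its SD of 2.73 and 2.34 in the groups (two-sided exact permutation p = 0.138; limma adjusted p = 0.368). The 95% interval of the difference ran from -5.17 to 1.41, and within wash batches it ran from -4.52 to 0.44. The differences of the other followers that were not called lay between -1.65 for Ambp and 0.60 for Serpina1a. Their SE ran from 0.26 for Vtn, which differed by 0.02, to 1.53 for Ahsg. Antithrombin (Serpinc1) was nearest to the threshold, at -1.48 ± 0.76 (SE; limma adjusted p = 0.119). It was below the WT mean on all 8 KO arrays.

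Adjustment for Alb raised the count of called genes. With the Alb value of each array as a covariate 12 of 31 genes were called, where 44.3% of all genes were. The 6 genes above remained, and Apoa2, Hpx, Serpina1a, Serpina1b, Serpinc1 and Ttr were added. Ttr was kept only through the ChREBPβ line and was well above background on 5 WT and 2 KO arrays of the total ChREBP line, so its call rests largely on background values. At a given level of Alb, Serpina1a was higher in total ChREBP KO by 1.83 ± 0.31 (SE; adjusted p = 1.2e-05) and Serpina1b by 1.57 ± 0.33 (adjusted p = 0.00022), whereas Serpinc1 was lower (-0.63 ± 0.25, adjusted p = 0.041). In the unadjusted values Serpina1a ran from 8.05 through 9.85 to 13.97 in WT mice and from 9.54 through 10.11 to 11.85 in total ChREBP KO, so that the lowest KO array lay above the lowest WT array while the highest lay below the highest. The adjustment assumes a straight line on the log2 scale, from which genes near background depart. The limit is not confined to those genes. Apoa2, well above background on all 32 arrays, had an r with Alb of 0.912 on the log2 scale and 0.987 on linear intensities. How far a bend in this relation shapes the added calls was not tested.

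**Figure D4:**
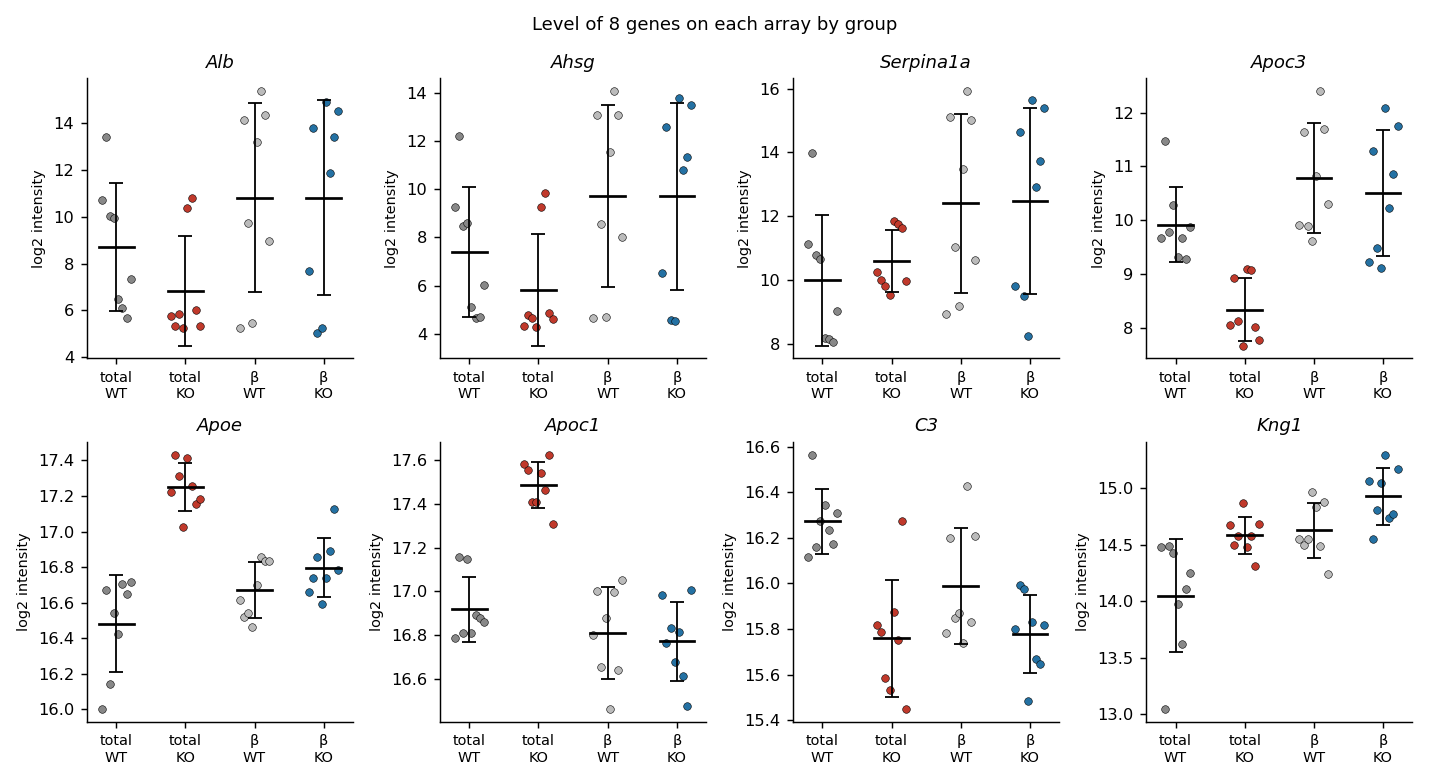
Log2 intensity (vertical axes, scaled per panel) of Alb, Ahsg, Serpina1a, Apoc3, Apoe, Apoc1, C3 and Kng1 on each array (points) in the 4 groups of 8, with the mean and SD as bars. Alb, Ahsg and Serpina1a spread over many log2 units, except that Serpina1a is narrower in total ChREBP KO, from 9.54 to 11.85. Every Apoe and Apoc1 array of total ChREBP KO lies above every array of its own WT. The highest ChREBPβ-KO array, at 17.13 for Apoe, reaches into the total ChREBP-KO range.

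ChREBPβ KO was then compared with WT mice of its line. By limma 0 of the 32 genes were called, while 2.7% of all genes were. With Alb as a covariate 0 of 31 were called, against 2.87%. At an unadjusted limma p under 0.05 there were 2 of 32, a smaller share than the 3458 of all 24523 genes. They were Hp (0.17 ± 0.07, adjusted p = 0.233) and C3 (-0.21 ± 0.10, adjusted p = 0.362), both with the sign seen in total ChREBP KO. Those comparisons share no arrays, but 2 genes picked in this way do not show a shared effect. The 21 followers had a median difference of 0.05 and lay between -0.28 and 0.28. Alb had a mean of 10.80 ± 4.16 (SD, n = 8) in ChREBPβ KO and of 10.81 ± 4.03 in WT mice (two-sided exact permutation p = 0.998). Within wash batches the difference ran from -7.65 to 2.59. The 95% interval of that difference, from -3.30 to 3.29 on the log2 scale, spanned both directions.

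The steady genes, whose range is small by the rule, were measured more closely. Apoe ran from 16.46 through 16.66 to 16.86 in WT mice of the ChREBPβ line and from 16.59 through 16.76 to 17.13 in ChREBPβ KO, a difference of 0.13 ± 0.09 (SE; limma adjusted p = 0.634). The second Apoe probe gave 0.28 ± 0.09 and was not called either (adjusted p = 0.117), although it was above the WT mean on all 8 KO arrays. Apoc1 ran from 16.46 through 16.84 to 17.05 and from 16.47 through 16.79 to 17.01, a difference of -0.04 ± 0.08 (SE; limma adjusted p = 0.916). Apoc3 differed by -0.28 ± 0.43 (SE; limma adjusted p = 0.87). The groups overlapped for all 32 genes, and did not for 0.432% of genes tested.

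**Figure D5:**
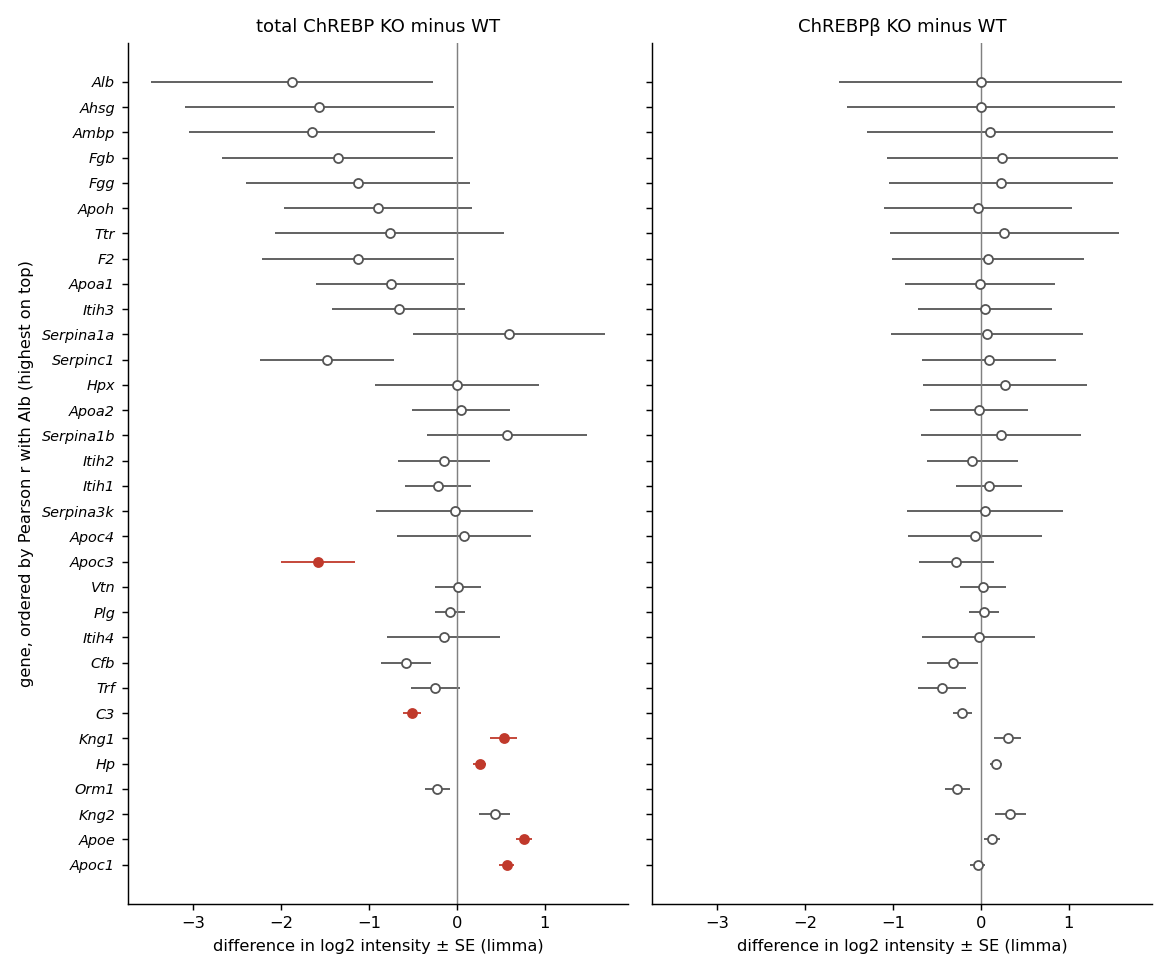
Difference in log2 intensity, KO minus WT, with its SE from limma (horizontal axes) for the 32 genes (rows, ordered by r with Alb), in total ChREBP KO (left) and ChREBPβ KO (right); filled red points were called at an adjusted p under 0.05. The SE is widest for the genes most like Alb, up to 1.61, and 6 genes on the left and none on the right are filled.

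The KO effects differed between the lines for Apoe and Apoc1, tested as the ChREBPβ effect minus the total ChREBP effect. The difference was -0.64 ± 0.13 for Apoe (SE; limma adjusted p = 0.000438) and -0.61 ± 0.12 for Apoc1 (SE; limma adjusted p = 0.000185). These were 2 of 32 genes, with 25.2% of all genes called. For Apoc3 the difference of 1.30 ± 0.60 was not called (adjusted p = 0.119), so the KO effects on Apoc3 were not shown to differ. With Alb as a covariate it was 0.86 ± 0.28 (adjusted p = 0.0243), and 5 of 31 genes were called, Serpina1a and Serpina1b included, against 25.7% of all genes.

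WT mice of the lines differed as well. Apoa2, Vtn, Hp and Kng1 were higher in WT mice of the ChREBPβ line and C3 and Trf were lower, 6 of 32 genes, with 38.9% of all genes called (24.8% higher and 14.1% lower). The groups overlapped for all 32 genes, and did not for 9.46% of all genes. All 21 followers had a positive difference, with a median of 1.76 against 0.05 over all genes, but only Apoa2 and Vtn of them were called. Alb differed by 2.09 with a two-sided exact permutation p of 0.238. Since these genes vary together, the 21 signs do not count as separate evidence.

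Vtn ran from 9.36 through 9.65 to 10.19 in WT mice of the total ChREBP line and from 9.83 through 10.19 to 11.78 in those of the ChREBPβ line, a difference of 0.88 ± 0.26 (SE; limma adjusted p = 0.00797). Apoa2 ran from 10.72 through 11.05 to 12.77 and from 11.20 through 12.41 to 15.03, a difference of 1.53 ± 0.56 (SE; limma adjusted p = 0.0286). Both calls were lost with slide as a fixed block, at 0.71 and 1.27 (adjusted p = 0.0551 and 0.0958), and within wash batches Apoa2 ran from -0.30 to 3.15. The second Apoa2 probe gave 2.02 and was not called (adjusted p = 0.112). With Alb as a covariate 12 of 31 genes were called, against 39.3% of all genes, and Ahsg, Kng2, Serpina1a, Serpina1b, Serpinc1 and Ttr were added. For Ttr the same limit holds, with 6 and 5 of 8 arrays well above background in WT mice of the ChREBPβ and total ChREBP lines. Ahsg (limma adjusted p = 0.0482) also passed the filter only through 6 or more arrays of 1 group, with 6 and 8 of 8 arrays well above background.

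Trf, the plasma iron carrier, ran from 14.49 through 15.14 to 15.61 in WT mice of the total ChREBP line and from 13.65 through 14.32 to 15.21 in those of the ChREBPβ line. The difference was -0.81 ± 0.28 (SE; limma adjusted p = 0.0185), and it was negative in all 4 wash batches, from -1.47 to -0.21. Kng1 differed by 0.58 ± 0.15 (adjusted p = 0.00283), Hp by 0.28 ± 0.07 (adjusted p = 0.00193) and C3 by -0.28 ± 0.10 (adjusted p = 0.0279). The C3 call was lost under both 75th percentile scalings (adjusted p = 0.0763 and 0.0644). The skeletal muscle genes listed were all called lower in WT mice of the ChREBPβ line, with a median difference of -6.27, and so were the 4 macrophage genes measured, with a median of -0.51. Over all genes 14.1% were called lower in this comparison. The part of muscle cells and macrophages in the Trf, C3 and Kng1 values was not tested.

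Of the 53 other plasma proteins measured, 3 were called higher and 10 lower in total ChREBP KO, 0 in ChREBPβ KO, and 7 higher and 11 lower in WT mice of the ChREBPβ line against those of the total ChREBP line. Over all genes 44.1%, 2.7% and 38.9% were called in these comparisons. Of the 12 hepatocyte genes measured, 0 were called in either KO comparison and 1 was higher in WT mice of the ChREBPβ line. Of the 8 brown adipocyte genes, 4 were called higher and 2 lower in total ChREBP KO and 0 in ChREBPβ KO. Between the WT groups 3 of them were called higher and 3 lower in the ChREBPβ line.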

How the data were processed

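RNA from brown adipose tissue was hybridised to Agilent SurePrint G3 Mouse arrays (8 per group) and, per the labels, extracted with Feature Extraction 10.10.1.1. The deposited scanner files hold intensity values per spot; the deposited log2 table holds the authors' filtered, quantile-normalised values. Gene names and mm9 coordinates are those of the array design. From the median intensity, spots found, positive and well above background on 26 of 32 arrays or on 6 arrays of 1 group were kept, log2-transformed, quantile-normalised and reduced to the median per probe; the result differed from the deposited table by 0.00298 on average. Differences were tested with limma 3.58.1 (R 4.3.3) on 4 group means over all 32 arrays, two-sided, with Benjamini-Hochberg adjustment over all 37306 probes; called means an adjusted p under 0.05. A gene was represented by its brightest probe. Scripts were tested on simulated data. Named were the 33 genes, the 10 others most like Alb and the extremes of the marker lists. The members and lists were chosen with earlier results of these data known. Wash batch (4) comes from the labels, slide (15) from the scanner file names. The labels do not say that replicate numbers mark litters or days, and deviations of same-numbered arrays correlated above 0.1 in 0 of 8 pairs of the total ChREBP line (-0.304 to 0.0801) and in 6 of 8 of the ChREBPβ line (-0.196 to 0.532). A pairing within the ChREBPβ line is thus not excluded. Numbers were not used as pairs because the labels do not give them as such. The alternatives were other background corrections and scalings, filters, blocks, Alb as a covariate and each array left out. Values of some listed genes are not reported here.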

Additional observations from a re-analysis of the deposited data

Results flagged for a closer look

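In WT mice of the total ChREBP line, replicate 2, the array with the highest Alb of that group, stood apart for 15 genes. Its gap to the nearest array, as a share of the group's range, was 0.62 for Apoa2, 0.542 for Apoc3, 0.686 for Apoc4, 0.584 for F2, 0.616 for Hp, 0.627 for Hpx, 0.588 for Itih1, 0.709 for Itih2, 0.667 for Itih3, 0.54 for Itih4, 0.606 for Plg and Serpina1b, 0.601 for Serpina3k, 0.678 for Serpinc1 and 0.537 for Vtn. In each it was the highest of 8 arrays, for example 10.21 for Serpinc1 against 7.94 on the next. Of 128 groups examined 15 passed Dixon's 95% critical value, where chance flags about 5% of independent groups, and all 15 were this array. Most of these genes follow Alb and vary together, so the 15 do not count as separate cases. Without it the 6 genes called in total ChREBP KO remained called, the Alb difference was -1.21 (two-sided exact permutation p = 0.298), and 11 genes rather than 6 were called between the WT groups.

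Apoe and Apoc1 were flagged because their KO effects differed between the lines, by -0.64 and -0.61 (limma adjusted p = 0.000438 and 0.000185).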

How the results depend on the processing

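With Alb as a covariate 12 genes were called in total ChREBP KO, 5 for the difference between the KO effects and 12 between the WT groups. With wash batch as a fixed block 10 were called between the WT groups. The Alb difference in ChREBPβ KO, near 0, changed sign under normexp (0.0548), slide as a fixed block (0.126) and slide as a random block (0.0414), with p or adjusted p from 0.978 to 0.995. All other settings kept these counts within 1.5 times and the sign of the Alb difference in total ChREBP KO. With each array left out in turn, 6 to 7 genes were called in total ChREBP KO, 0 in ChREBPβ KO, 2 to 3 for the difference and 4 to 11 between the WT groups: 11 without WT replicate 2 of the total ChREBP line, 10 without WT replicate 1 and 4 without WT replicate 7 of the ChREBPβ line. The Alb difference ran from -2.44 to -1.21 in total ChREBP KO and from -0.80 to 0.82 in ChREBPβ KO. With the replicate number as a block over both lines, 7, 0, 2 and 9 genes were called, and the Alb differences were -1.88 and -0.005. The numbers are not known to pair mice, and this block does not test a pairing within the ChREBPβ line. Between 19 and 22 genes followed Alb under the other measures: Vtn dropped out in 4 of the 5, Apoc3 under Spearman rho, and Itih4 or Plg came in under 3 of them. Without the 2 arrays farthest from the median Alb, a choice made after seeing the data, 6, 0, 2 and 5 genes were called. Counting a gene by any of its probes gave 7 in total ChREBP KO. For the called genes, 172 of 180 values under other settings and 439 of 448 with an array left out kept sign and call, and none changed sign. Between the WT groups C3 lost its call without any 1 of 6 arrays and Apoa2 without any 1 of 3. For 8 genes that passed the filter through 1 group, low signal over background limits what the values can show.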
